A study of Mus musculus with 28 samples.

Results

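The 98 genes described here are the nuclear genes for the respiratory chain and the ATP synthase of the mitochondrion that were counted in mouse colon organoids. They are the counted genes whose symbol starts with Nduf, Uqcr or Atp5 or with Cox and a digit, together with Sdha to Sdhd, Cyc1 and Cycs, and pseudogenes were left out. Of the 13519 genes in the deposited counts, 98 met this rule, and 11 further annotated symbols of the rule, among them Cox4i2, Cox6a2, Cox8b and Cox8c, were not among the genes counted. By role, 36 are subunits of complex I, 4 of complex II, 9 of complex III, 13 of complex IV and 16 of complex V, 1 is cytochrome c, and 19 are assembly or accessory factors. Atpif1, the inhibitor of the ATP synthase, and Usmg5, a subunit of it, were counted under older symbols and fall outside the rule.

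Oxidative phosphorylation passes electrons from NADH through complex I, and from succinate through complex II, to complex III, then by cytochrome c to complex IV, which reduces oxygen. Complexes I, III and IV pump protons, and complex V, the ATP synthase, uses the gradient to make ATP. Complexes I, III, IV and V combine subunits encoded in the nucleus with a few encoded in mitochondrial DNA, whereas complex II is encoded wholly in the nucleus. In the colon, absorptive colonocytes near the lumen are rich in mitochondria, and crypt cells divide.

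All organoids were from the colon of C57BL/6N mice and carried the *Villin*::CreERT2 transgene, which expresses a tamoxifen-inducible Cre recombinase under an intestinal epithelial promoter, and *Apc* flox/flox. AC organoids had no other engineered allele, PAC organoids also carried *Trp53* LSL-R172H/+, BAC organoids *Braf* floxV600E/+, and BPAC organoids combined these alleles. By the labels AC came from 1 donor mouse and every other genotype from 2, and each donor gave 2 cultures, duplicates 1 and 2, so that 14 cultures were each given ethanol (EtOH) or 3.5 µM 4-hydroxytamoxifen (4-HT) for 24 hours, with RNA taken 3 days later. EtOH samples are therefore organoids with unrecombined alleles, and no organoid without *Apc* flox/flox was present, so a response to 4-HT itself cannot be told apart from loss of *Apc*. Duplicates of a donor are not separate animals, and p values measure the spread between cultures.

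Totals ranged from 20577276 to 40068718 counts per sample. *Trp53* rose with 4-HT, by 1.51 on the log2 scale in PAC and 1.83 in BPAC and by 0.74 in AC and 0.97 in BAC (edgeR adjusted p at most 0.00168 in each), and in EtOH it lay between 51.4 and 66.0 CPM (counts scaled to the effective size of the library) in PAC and BPAC, below the 97.9 to 122 CPM of AC and BAC. Gene totals of *Apc* and *Braf* cannot show an excised exon or a changed codon and were no check of those alleles. The 4-HT samples of duplicate 1 of both PAC donors were the closest pair of all libraries (Pearson r = 0.997 across genes, against 0.9925 for the next pair), and each held *Xist* (25.2 and 22.0 CPM) together with Y-linked transcripts (55.0 and 53.5 CPM), which no other sample combined at these levels. Whether these 2 libraries were mixed or mislabelled was not tested. The EtOH sample of PAC donor 1 duplicate 1 deviated from its group mean as much with the 4-HT sample of donor 2 duplicate 1 (r = 0.26 across genes) as with its own (r = 0.245), and that of donor 2 duplicate 1 had r = 0.44 with the 4-HT sample of donor 1 and 0.459 with its own, so these pairs are in doubt. The PAC values of members called there are therefore also given without the 2 duplicate 1 cultures.

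After 4-HT most structural subunits of the chain were called lower in BAC and in BPAC, 60 and 51 of 79, and few were in PAC (18) and AC (2). These counts come from groups of unequal size and are no test of a difference between genotypes, which is given further on. With the edgeR quasi-likelihood test, TMM normalization and an adjusted p under 0.01 over all genes, 65 of the 98 genes were lower and 2 higher in BAC, where 21.5% of all genes were lower and 20.3% higher. In BPAC 53 were lower and 3 higher, against 23% and 22% of all genes. In PAC 18 were lower and none higher, against 12.2% and 11.2%. In AC, with 2 cultures, 2 were lower and none higher, against 4.25% and 3%. The 65 genes of BAC are 66.3% of the members, and the 18 of PAC are 18.4%. The median log2 fold change (FC) of the 98 genes was -0.47 in BAC, -0.38 in BPAC, -0.25 in PAC and -0.30 in AC, and the median of all genes was -0.04, -0.04, -0.03 and 0.01 in that order.

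These counts depended on the pairing of samples, on single cultures and on the scaling. With the culture as a block, 15 members (15.3%, against 8.99% of all genes) were lower in AC, and 35 (35.7%, against 18.4%) were lower and 1 (against 16.5%) higher in PAC, a count that rests in part on the duplicate 1 pairs in doubt. Without the 2 duplicate 1 cultures of PAC no member was called lower in PAC and 0.192% of all genes were, and the median of the 98 genes there was then -0.21. The 18 genes called lower there were all still below 0, from -1.06 to -0.21, with a median of -0.31 in place of -0.44. The PAC count fell from 18 to 10, 3 or 7 without PAC donor 1 duplicate 1, donor 2 duplicate 1 or donor 2 duplicate 2, and the share of all genes lower there from 12.2% to 6.59%, 5.41% or 9.25%. Without BPAC donor 1 duplicate 1, 35 members in place of 53 were lower in BPAC, and 17.8% of all genes in place of 23%. With the 2 duplicates of each donor summed, 57 members were lower in BAC (18.8% of all genes), 44 in BPAC (21.2%), 17 in PAC (10.7%) and none in AC (3.55%), where this leaves 1 library per treatment and the spread is assumed to be that of the other groups. In that fit 1 was higher in BAC and 2 in BPAC, against 20.7% and 21.9% of all genes. Library size in place of TMM moved the median of all genes to 0.23, 0.20, 0.13 and 0.18 for AC, PAC, BAC and BPAC, and that of the 98 genes to -0.08, -0.02, -0.30 and -0.16. Under it 38 members were lower and 3 higher in BAC, against 15.3% and 28.7% of all genes, and 20 were lower and 8 higher in BPAC, against 15.1% and 32%. In PAC 1 was lower and 3 higher, against 5.45% and 25.1%, and in AC none was called in either direction, against 2.23% and 11.2%. Relative to the median of all genes the members lay 0.31, 0.22, 0.44 and 0.34 lower with TMM and 0.31, 0.22, 0.43 and 0.34 lower with library size. A scaling shifts all genes of a sample alike, so this likeness was fixed in advance and is no further support.

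**Figure D1:**
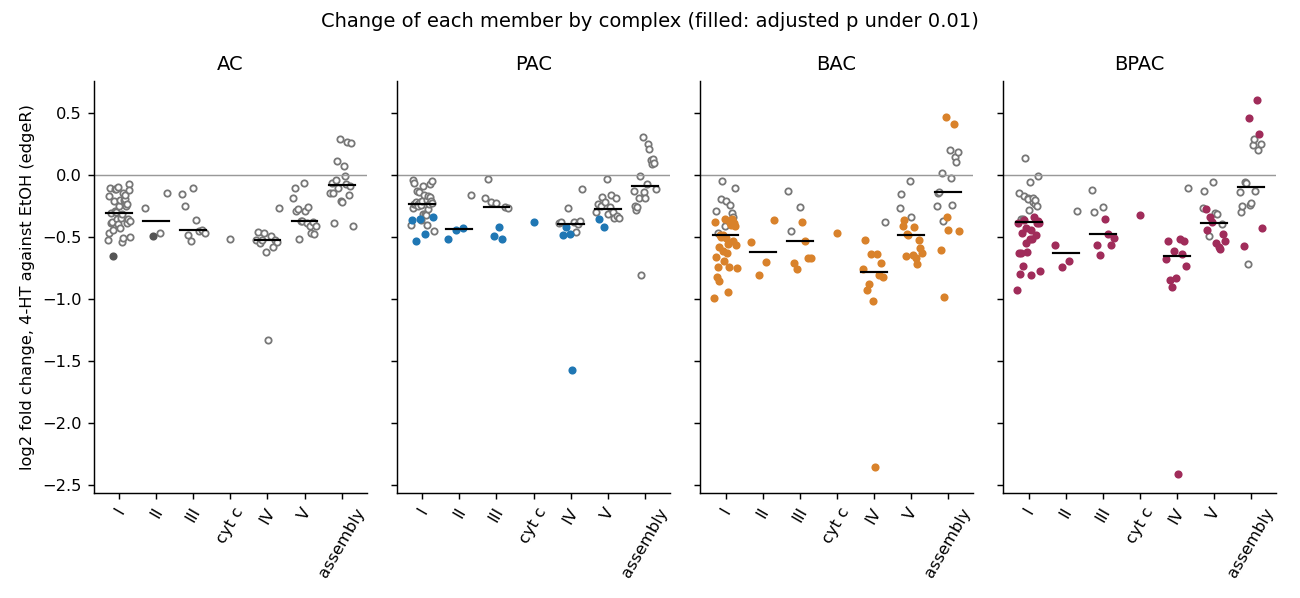
Log2 fold change of 4-HT against EtOH (vertical axis, edgeR) of each gene, by complex and in a panel per genotype. Filled points passed an adjusted p of 0.01, open points did not, bars are medians, and 2 genes under 1 CPM are not drawn. In BAC and BPAC nearly all structural subunits lie below 0 and Cox7a1 lies lowest, while the assembly group straddles 0.

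The mean change of the 13 complex IV genes, as 4-HT minus EtOH in log2 CPM of the same culture, was -0.77 ± 0.15 in BAC (SD, n = 4 cultures), -0.66 ± 0.30 in BPAC (n = 4), -0.39 ± 0.23 in PAC (n = 4) and -0.50 ± 0.05 in AC (n = 2). Without Cox7a1, left out after its values were seen, it was -0.64, -0.52, -0.31 and -0.41 in the same order. For the 36 complex I genes it was -0.50 ± 0.10 in BAC, -0.39 ± 0.19 in BPAC, -0.24 ± 0.18 in PAC and -0.30 ± 0.03 in AC. For complex II it was -0.60 ± 0.07, -0.57 ± 0.09, -0.38 ± 0.19 and -0.34 ± 0.02 in that order, for complex III -0.50 ± 0.05, -0.41 ± 0.17, -0.28 ± 0.19 and -0.36 ± 0.003, and for complex V -0.46 ± 0.07, -0.37 ± 0.18, -0.26 ± 0.18 and -0.33 ± 0.02. Complex IV had the lowest mean of the 5 complexes in each genotype, but in PAC and BPAC the mean of complex II was lower once Cox7a1 was left out. The complex IV mean then still held Cox6b2, for which no fold is given below. In PAC the median log2 FC of complex II (-0.44) was below that of complex IV (-0.39), and in BPAC they were -0.631 and -0.638. With the duplicate 2 cultures alone (n = 2) the PAC means were -0.19, -0.265, -0.195, -0.31 and -0.22 for complexes I, II, III, IV and V. All BAC, BPAC and AC cultures were below 0 for every complex, and so were those of PAC except donor 1 duplicate 2 for complex I (0.002). The PAC and BPAC means spread more widely, and outside complex II the same culture of each stood nearest to 0, PAC donor 1 duplicate 2 and BPAC donor 1 duplicate 2. The assembly group averaged between -0.09 and 0.01 in the 4 genotypes, with an SD of at most 0.12, so its mean was within its spread in PAC and BPAC. Part of that spread comes from Ndufa4l2, for which no fold is given below. Its change ran from -2.96 in PAC donor 2 duplicate 1 to 2.75 in BPAC donor 2 duplicate 1.

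**Figure D2:**
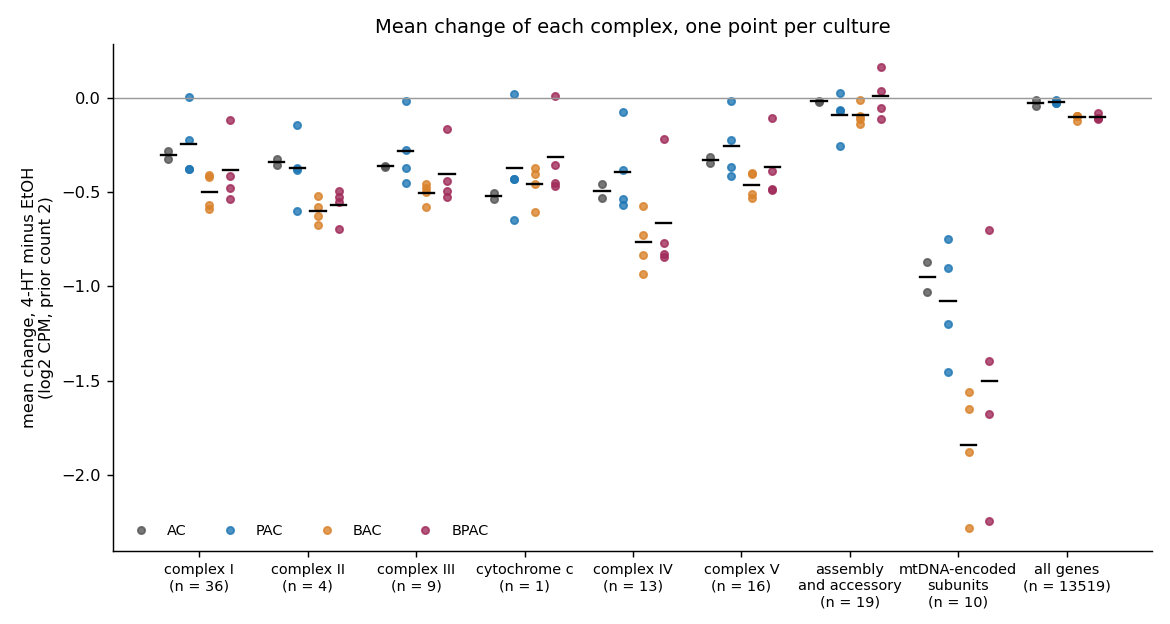
Mean change from EtOH to 4-HT (vertical axis, log2 CPM with a prior count of 2) of the genes of each complex, with 1 point per culture, colours for the 4 genotypes and bars for their means. Complex IV lies lowest of the nuclear groups in BAC at -0.77, the assembly group lies near 0, and the subunits encoded in mitochondrial DNA lie far lower.

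Complex I takes electrons from NADH. Of its 36 genes 26 were lower in BAC, 21 in BPAC, 5 in PAC and 1 in AC, and none was higher in any of them. Of all genes 21.5%, 23%, 12.2% and 4.25% were lower in that order, which applies to each complex below, so the shares of complex I in PAC (13.9%) and AC (2.78%), and of complex V in PAC (12.5%), were near or under the background. Ndufa6, a LYR-motif accessory subunit, is 1 of the 2 members called lower in all 4 genotypes. It lay at 173 and 152 CPM in the EtOH samples of AC and at 112 and 94.5 CPM with 4-HT. In BAC it lay at 196, 236, 173 and 198 CPM in EtOH and at 115, 120.2, 103 and 105 CPM with 4-HT. All 4-HT values of BAC were below all EtOH values, and the same held for PAC, BPAC and AC. Its log2 FC was -0.86 ± 0.12 (SE) in BAC, -0.73 ± 0.12 in BPAC, -0.53 ± 0.12 in PAC and -0.65 ± 0.16 in AC (edgeR adjusted p = 1.26e-06, 8.45e-06, 0.000945 and 0.00808).

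Ndufa1, a small membrane-arm subunit needed for complex I assembly, had the largest fall of the complex in BAC and BPAC, by 0.99 and 0.93 on the log2 scale (adjusted p = 1.17e-06 and 2.44e-06), while its log2 FC was -0.52 in AC and -0.40 in PAC (adjusted p = 0.057 and 0.0202, and 0.0117 and 0.00479 with the culture as a block). The block value in PAC uses the pairs in doubt. Ndufb9, another LYR-motif subunit and at 287 CPM among the highest of complex I, fell by 0.945 in BAC, 0.81 in BPAC and 0.47 in PAC (log2 FC of -0.38 without the 2 duplicate 1 cultures, adjusted p = 0.121). Ndufv1, which carries the flavin that accepts electrons from NADH and was highest of the complex at 304 CPM, fell by 0.41 in BAC and 0.37 in BPAC.

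Complex II oxidizes succinate and is also an enzyme of the tricarboxylic acid cycle. All 4 of its genes were lower in BAC, 3 in BPAC, 3 in PAC and 1 in AC. Sdhb, the iron-sulfur subunit, is the other member called lower in all 4 genotypes, where 3.85% of all genes and 2.04% of the members were. In AC it lay at 393 and 337 CPM in EtOH and at 274 and 244 CPM with 4-HT. In PAC it lay at 412, 368, 512 and 386 CPM in EtOH and at 311, 314, 324 and 287 CPM with 4-HT. In BAC the values were 491, 450.4, 455 and 444 CPM in EtOH and 270.2, 256, 266 and 260 CPM with 4-HT. The EtOH and 4-HT values did not overlap in any of these 3 genotypes, nor in BPAC, where they were 396 to 479 and 247 to 274 CPM. The log2 FC was -0.81 ± 0.09 (SE) in BAC, -0.74 ± 0.09 in BPAC, -0.44 ± 0.09 in PAC and -0.49 ± 0.12 in AC (edgeR adjusted p = 5.16e-08, 1.37e-07, 0.000429 and 0.00821).

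Sdha, the flavoprotein subunit that binds succinate, fell by 0.52 in PAC, 0.54 in BAC and 0.57 in BPAC. Sdhd, a membrane anchor, fell by 0.365 in BAC and had a log2 FC of -0.29 in BPAC (adjusted p = 0.0235, and 0.00243 with the culture as a block). The AC calls of Sdhb and Ndufa6 were lost when either AC culture was left out, and they were lost again when certain cultures of the other genotypes were left out, since these share the estimate of the spread. In PAC the calls of Sdhb, Ndufa6 and Sdha were lost without the 2 duplicate 1 cultures, with a log2 FC of -0.325, -0.44 and -0.37 (adjusted p = 0.07, 0.108 and 0.121).

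Complex III passes electrons from ubiquinol to cytochrome c. Of its 9 genes 6 were lower in BAC, 6 in BPAC, 3 in PAC and none in AC. Uqcrb, a small subunit at the ubiquinone site, fell by 0.76 in BAC, 0.65 in BPAC and 0.49 in PAC. Uqcrfs1, the Rieske iron-sulfur protein, fell by 0.52 in PAC, 0.53 in BAC and 0.48 in BPAC. Without the 2 duplicate 1 cultures the PAC calls of both were lost, with a log2 FC of -0.28 for Uqcrb and -0.30 for Uqcrfs1 (adjusted p = 0.275 and 0.221). Uqcrc1, a core protein, and Cyc1, cytochrome c1, had the highest levels of the complex, 822 and 583 CPM, and neither was called without the block. The log2 FC of Uqcrc1 in BAC was -0.26 ± 0.11 (SE) and that of Cyc1 -0.13 ± 0.12 (adjusted p = 0.0552 and 0.388). With the culture as a block Uqcrc1 passed the threshold in BAC and BPAC (adjusted p = 0.0085 and 0.00863), and Cyc1 did not in any genotype. Cycs, the soluble cytochrome c that links complexes III and IV, fell by 0.465 in BAC, 0.38 in PAC and 0.325 in BPAC, and its log2 FC in AC was -0.52 (adjusted p = 0.0149, and 0.00841 with the culture as a block). Its PAC value without the 2 duplicate 1 cultures was -0.21 (adjusted p = 0.386).

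Complex IV is cytochrome c oxidase, and several of its nuclear subunits exist as a ubiquitous isoform and an isoform of heart and skeletal muscle. Of its 13 genes 11 were lower in BAC, 11 in BPAC, 4 in PAC and none in AC, where 6 were lower with the culture as a block. Cox7a1, the isoform of heart and muscle, had the largest change of all 98 genes in BAC and BPAC. It lay at 20.0, 21.7, 19.2 and 12.6 CPM in the EtOH samples of BAC and at 4.32, 3.02, 3.42 and 3.57 CPM with 4-HT. In BPAC it lay at 24.3, 12.3, 13.9 and 14.9 CPM in EtOH and at 2.92, 4.57, 2.33 and 2.49 CPM with 4-HT. EtOH and 4-HT samples did not overlap in either genotype, nor in PAC or AC, and in PAC EtOH values ran from 7.84 to 27.4 CPM and 4-HT values from 3.73 to 6.61 CPM. In AC it lay at 13.0 and 7.27 CPM in EtOH and at 6.07 and 1.98 CPM with 4-HT. The log2 FC was -2.35 ± 0.37 (SE) in BAC, -2.41 ± 0.37 in BPAC, -1.58 ± 0.36 in PAC and -1.33 ± 0.515 in AC (edgeR adjusted p = 1e-05, 6.65e-06, 0.00154 and 0.0768). With the culture as a block the adjusted p in AC was 0.00575, and the PAC call was lost without PAC donor 2 duplicate 1, and without both duplicate 1 cultures, where the log2 FC was -1.06 (adjusted p = 0.129).

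Cox7a2, the ubiquitous isoform, was far more abundant and changed less. In BAC it lay at 332, 373, 315 and 327 CPM in EtOH and at 231, 218, 214 and 205 CPM with 4-HT. Its log2 FC was -0.635 ± 0.12 (SE) in BAC and -0.515 ± 0.12 in BPAC (adjusted p = 0.00012 and 0.000937), and -0.49 and -0.38 in AC and PAC (adjusted p = 0.0531 and 0.0171, and 0.0125 and 0.00522 with the culture as a block). The block value in PAC uses the pairs in doubt. The difference between the isoforms was not tested. Cox7a2l, a related factor that takes part in supercomplex assembly, fell by 0.44 in BAC and had a log2 FC of -0.22 in BPAC. Per kb of exon Cox7a1 averaged 18.4 CPM over all samples and Cox7a2 averaged 275 CPM.

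Among the other subunits, Cox6c and Cox5b, chosen here after their values were seen, fell by 1.01 and 0.93 in BAC. Cox6a1, the ubiquitous isoform of subunit VIa with the highest level per kb of exon of all members (1010 CPM per kb), fell by 0.42 in PAC, 0.88 in BAC and 0.90 in BPAC, the PAC value being -0.38 without the 2 duplicate 1 cultures (adjusted p = 0.107). Cox8a fell by 0.83 in BAC and 0.74 in BPAC. Cox6b1 fell by 0.64 and 0.615 there, and Cox4i1, the ubiquitous isoform of subunit IV, by 0.76 and 0.675. Ndufa4, now assigned to complex IV, had a log2 FC of -0.38 in BAC (adjusted p = 0.0121, and 0.00665 with the culture as a block) and -0.10 in BPAC, and the latter turned to 0.11 with library size. Its paralog Ndufa4l2 averaged 0.178 CPM and Cox6b2, the testis isoform of subunit VIb, 0.709 CPM, levels at which no fold is given.

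**Figure D3:**
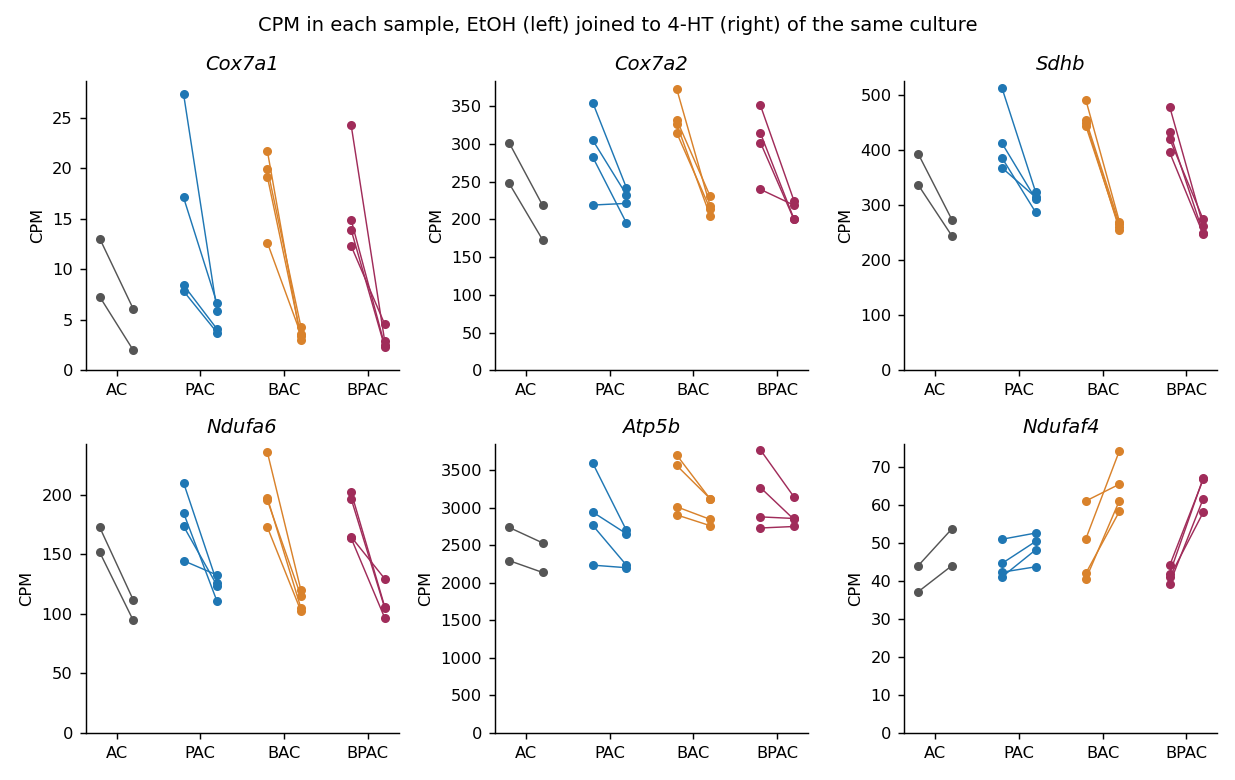
CPM (vertical axes, from 0) of 6 genes in each of the 28 samples, with lines joining the EtOH sample of a culture (left) to its 4-HT sample (right). Cox7a1 falls to 2.33 to 4.57 CPM in the 4-HT samples of BAC and BPAC, Cox7a2, Sdhb and Ndufa6 fall by less, Atp5b stays at 2138 CPM or higher, and Ndufaf4 lies higher with 4-HT in BPAC.

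Complex V was led by its catalytic head. Atp5b and Atp5a1, the beta and alpha subunits, had the highest levels of all 98 genes before scaling to length, 2868 and 2173 CPM, and neither was called in any genotype without the block. With it Atp5a1 passed the threshold in PAC (adjusted p = 0.0087), a call that uses the pairs in doubt, and Atp5b did not in any genotype. Atp5b lay at 3704, 2905, 3564 and 3013 CPM in the EtOH samples of BAC and at 3117, 2761, 3121 and 2845 CPM with 4-HT, and the groups overlapped. Its log2 FC was -0.155 ± 0.13 (SE) in BAC, -0.125 ± 0.13 in BPAC, -0.24 ± 0.13 in PAC and -0.11 ± 0.18 in AC, and with library size it was positive in AC, BAC and BPAC. Of the 16 genes 12 were lower in BAC, 9 in BPAC, 2 in PAC and none in AC. Atp5k, the small membrane subunit e, fell by 0.72 in BAC and 0.60 in BPAC. Atp5f1, the peripheral stalk subunit b, was lower in 3 genotypes, with a log2 FC of -0.42 in PAC (-0.30 without the 2 duplicate 1 cultures, adjusted p = 0.118), -0.48 in BAC and -0.335 in BPAC. The c subunit of the rotor is encoded by 3 genes for the same mature protein. Atp5g1 fell by 0.49 in BAC and 0.38 in BPAC. The log2 FC of Atp5g3 was -0.34 and -0.305 (adjusted p = 0.0162 and 0.0274, and 0.00217 and 0.00523 with the culture as a block), and that of Atp5g2 -0.05 in both. Outside the rule, Atpif1 fell by 0.78 in BAC and 0.64 in BPAC, and Usmg5 by 0.59 in BAC.

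The 3 members that rose were among the 19 assembly factors, of which 2 rose in BAC and 3 in BPAC (10.5% and 15.8%), under the 20.3% and 22% of all genes. Ndufaf4, an assembly factor of complex I, lay at 42.0, 39.3, 41.1 and 44.1 CPM in the EtOH samples of BPAC and at 67.2, 61.7, 58.1 and 66.8 CPM with 4-HT, without overlap. In BAC it lay at 40.6, 61.1, 42.1 and 51.2 CPM in EtOH and at 61.3, 65.6, 58.4 and 74.4 CPM with 4-HT, and the groups overlapped. It rose by 0.61 ± 0.11 (SE) in BPAC and 0.41 ± 0.11 in BAC (edgeR adjusted p = 6.41e-05 and 0.00322), and its log2 FC was 0.27 in AC and 0.12 in PAC (adjusted p = 0.268 and 0.411). The BAC call was lost without BAC donor 1 duplicate 1, donor 2 duplicate 1 or donor 2 duplicate 2. Cox18, which inserts a subunit of complex IV into the inner membrane, rose by 0.47 in BAC and 0.46 in BPAC, the latter call being lost without BPAC donor 1 duplicate 1, and both were lost with the duplicates of each donor summed (adjusted p = 0.0137 and 0.0156). In PAC its log2 FC was 0.31, and it passed the threshold with the culture as a block (adjusted p = 0.00978), which uses the pairs in doubt, but not with donors summed (0.134) or without the 2 duplicate 1 cultures (0.165). Ndufaf6 rose by 0.33 in BPAC. With duplicate 2 alone Ndufaf4 in BPAC was the 1 rise called (adjusted p = 0.00388). Of the other assembly factors, Cox14 fell by 0.60 in BAC and 0.57 in BPAC, and Cox17, a copper chaperone with only 2.89 CPM on average, fell by 0.99 in BAC, a call that was lost with the culture as a block and with limma-voom. Ndufaf8, a factor of complex I, was lower in BAC and BPAC, and Cox19, another copper-handling factor, in BAC. Many small subunits have near-identical processed pseudogenes, which can share reads with them.

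The promoters of 4 of these genes are shown because they stand for 3 patterns, the calls in all genotypes (Ndufa6 and Sdhb), the largest fall (Cox7a1) and a rise (Ndufaf4). The sequences are from RefSeq on GRCm38.p6, each from 250 bases before to 50 after the gene's start and 5′ to 3′ on the gene's strand. Ndufa6 is at chr15:82354242-82354541 on the minus strand, Sdhb at chr4:140961021-140961320, Cox7a1 at chr7:30183921-30184220 and Ndufaf4 at chr4:24897833-24898132 on the plus strand. Capitals mark a match to 1 of the 5 patterns described next.
Ndufa6: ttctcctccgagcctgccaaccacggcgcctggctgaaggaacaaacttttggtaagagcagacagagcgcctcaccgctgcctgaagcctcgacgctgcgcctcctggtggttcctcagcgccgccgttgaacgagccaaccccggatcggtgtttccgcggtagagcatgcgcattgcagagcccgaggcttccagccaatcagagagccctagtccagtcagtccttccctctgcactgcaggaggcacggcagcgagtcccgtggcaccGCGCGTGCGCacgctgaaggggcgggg
Sdhb: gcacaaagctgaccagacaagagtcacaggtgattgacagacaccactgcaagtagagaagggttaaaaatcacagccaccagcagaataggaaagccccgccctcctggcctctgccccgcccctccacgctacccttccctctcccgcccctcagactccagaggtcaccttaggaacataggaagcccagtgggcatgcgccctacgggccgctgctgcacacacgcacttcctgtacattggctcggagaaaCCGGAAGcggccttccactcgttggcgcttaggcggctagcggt
Cox7a1: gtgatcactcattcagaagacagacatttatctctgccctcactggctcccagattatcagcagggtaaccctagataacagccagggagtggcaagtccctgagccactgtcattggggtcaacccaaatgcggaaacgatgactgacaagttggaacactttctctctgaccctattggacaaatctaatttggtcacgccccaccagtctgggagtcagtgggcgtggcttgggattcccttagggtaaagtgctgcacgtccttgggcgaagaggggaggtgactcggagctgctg
Ndufaf4: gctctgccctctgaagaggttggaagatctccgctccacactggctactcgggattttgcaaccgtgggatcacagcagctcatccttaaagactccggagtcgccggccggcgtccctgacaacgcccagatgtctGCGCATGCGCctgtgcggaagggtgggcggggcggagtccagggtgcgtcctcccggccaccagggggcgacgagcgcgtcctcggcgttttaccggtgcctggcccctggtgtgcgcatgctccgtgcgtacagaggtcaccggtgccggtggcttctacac

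Searched on both strands were GCGCA and GCGC with any base between them, bound by NRF1, TNAAGGTCA, bound by estrogen-related receptors, CCGGAAG, bound by ETS factors such as GABP, AANATGGCG, bound by YY1, and CACGTG, an E-box, and no matches of different patterns overlapped in a member. Of the members, 81 of 98 were matched to RefSeq promoters. The NRF1 pattern was in 19 of these (23.5%, against 11.4% of the 10114 counted genes with a promoter and 5.19% of all 27025 genes), the ETS pattern in 22 (27.2%, against 19.8% and 9.93%), the YY1 pattern in 12 (14.8%, against 5.9% and 2.76%), the receptor pattern in 3 (3.7%, against 0.89% and 1.43%) and the E-box in 6 (7.41%, against 11.6% and 8.09%). Of the 19 with the NRF1 pattern 12 were called lower in BAC, and of the 62 without it 43 were. For the ETS pattern 16 of 22 were lower with it and 39 of 59 without it. Ndufa6, which fell, and Ndufaf4, which rose, both hold the NRF1 pattern, and the window of Cox7a1 holds none of the 5.

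Genes called lower in both BAC and BPAC were 53 of the members (54.1%) and 2539 of all genes (18.8%). All 53 members called lower in BPAC were also called lower in BAC, where 81.6% of all genes lower in BPAC were. All 18 members called lower in PAC were called lower in BAC, where 83.6% of all 1655 genes lower in PAC were. Of the 98 genes, 30 (30.6%) were called in no genotype, against 48% of all genes. BAC and BPAC have no sample in common, but the fit uses 1 estimate of the spread for all groups.

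Whether the change differed by allele was tested across genotypes. In the Braf contrast, which sets the mean change of the genotypes with *Braf* floxV600E against the mean of those without it, 1 of 98 genes was lower and none higher, which is 1.02% of the members, where 3.55% of all genes were lower and 3.05% higher. With the culture as a block 7 were lower, 7.14% of the members against 7.48% of all genes. At an unadjusted p under 0.05 edgeR had 18 members, limma-voom 19 and DESeq2 20, and edgeR with the block 32, where 3857 and, with the block, 5261 of all 13519 genes reached it. Both shares of calls were below the background, so for most members a difference by *Braf* allele was not shown. The median of the contrast was -0.15 over the members and -0.01 over all genes. Ndufa13, a complex I subunit also known as GRIM-19, was the gene called. Its change was -0.36 and -0.42 in the AC cultures and between -0.415 and -0.06 in the 4 PAC cultures. In BAC the values were -0.99 to -0.625, and in BPAC -0.90 to -0.60, so that every culture with *Braf* floxV600E lay below every culture without it. Ndufa13 was picked by this same contrast, so the separation of its cultures is no further support. Its contrast was -0.50 (edgeR adjusted p = 0.00156, and 0.000586 with the culture as a block), and the call was lost, with a contrast of similar size, in 5 fits with fewer samples. These left out AC duplicate 1 (-0.485, adjusted p = 0.0202) or AC duplicate 2 (-0.515, 0.0122), summed the duplicates of each donor (-0.44, 0.0137), or used duplicate 1 alone (-0.45, 0.011) or duplicate 2 alone (-0.54, 0.132). The 8 cultures with the allele came from 4 donors and the 6 without it from 3. With the block Ndufa1, Ndufa3, Sdhb, Cox5b, Cox6a1 and Cox8a passed as well (genes named after their values were seen), with contrasts from -0.485 to -0.31. None of these passed without the block, which uses the PAC pairs in doubt.

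**Figure D4:**
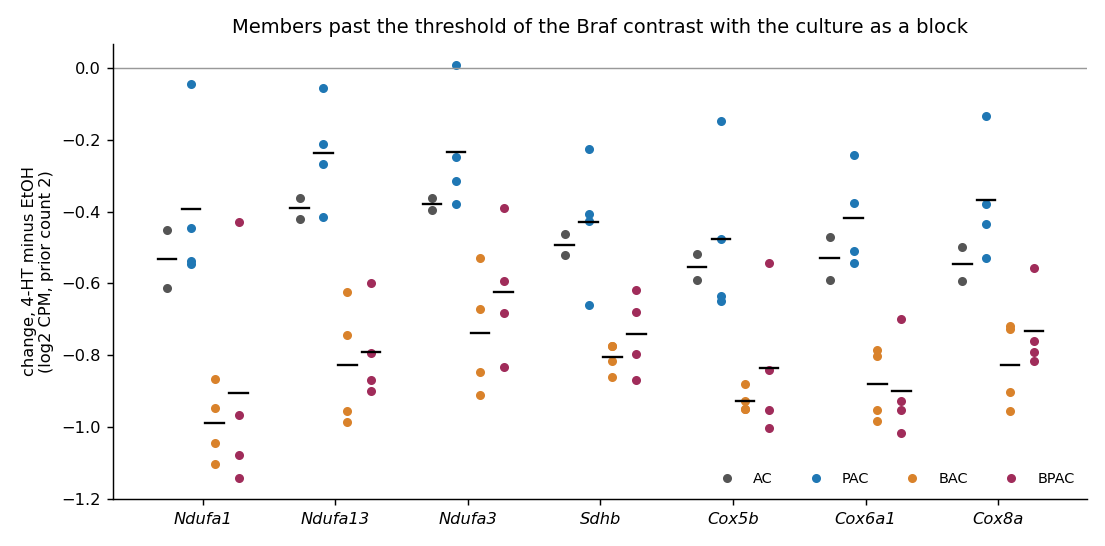
Change from EtOH to 4-HT (vertical axis, log2 CPM with a prior count of 2) of the 7 genes past the threshold of the Braf contrast with the culture as a block, with 1 point per culture, colours for the genotypes and bars for means. For Ndufa13 the BAC and BPAC cultures lie at -0.60 or lower and the AC and PAC cultures at -0.42 or higher.

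In the Trp53 contrast, which does the same for *Trp53* LSL-R172H, none of the 98 genes was called in either direction, and 0.0074% of all genes were called higher and as many lower. At an unadjusted p under 0.05 edgeR had 1 member, limma-voom 2 and DESeq2 2, and neither of these 2 tools called any. The median over the members was 0.085, against -0.01 over all genes.

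Other subunits of the chain and of the ATP synthase are encoded in mitochondrial DNA. The median log2 FC of these transcripts lay below that of the nuclear ones in each genotype, a difference that was not tested. Of 13 such subunits 10 were counted, and 10 were lower in BAC, 10 in BPAC, 8 in PAC and none in AC, where 1 was lower with the culture as a block, and in the Braf contrast none was called, and with the block 2 were lower, where 7.48% of all genes were, with a median of -0.65. Their median log2 FC was -1.88 in BAC, -1.48 in BPAC, -1.17 in PAC and -0.98 in AC. Per culture their mean change was -1.84 ± 0.32 in BAC (SD, n = 4) and -1.50 ± 0.64 in BPAC (n = 4). mt-Atp6, a complex V subunit, and mt-Co2, of complex IV, had the largest falls in BAC, with a log2 FC of -2.185 and -2.15, but averaged only 10.5 and 5.27 CPM, and their sequence has near-identical copies in the nuclear genome, so these levels are uncertain. mt-Co1, the most abundant at 4764 CPM and named for that after its values were seen, fell by 1.89 in BAC and 1.55 in BPAC. The share of all counts on mitochondrially encoded genes ran from 1.19% to 6.43% in EtOH samples and from 0.535% to 2.47% in 4-HT samples. The share on the 98 nuclear genes ran from 1.97% to 2.94% and from 1.96% to 2.54%.

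Among 18 counted regulators of mitochondrial gene expression 8 were higher in BAC and 9 in BPAC (44.4% and 50%, against 20.3% and 22% of all genes), and 4 were lower in each (22.2%, against 21.5% and 23%). The largest were Myc, a transcription factor of growth, which rose by 1.845 in BAC and 1.58 in BPAC, and Ppargc1a, the coactivator PGC-1alpha, which fell by 1.46 and 1.36. Ppargc1b fell by 1.16 and 1.31, whereas Nrf1 rose by 0.62 and 0.58 and Tfam, which packages mitochondrial DNA, by 0.34 and 0.41. In PAC 4 of the 18 regulators were higher (22.2%, against 11.2% of all genes) and 3 lower (16.7%, against 12.2%). In AC 3 were higher (16.7%, against 3%) and none lower (against 4.25%). Of 13 tricarboxylic acid cycle enzymes 4 were lower and none higher in BAC, 4 lower and 1 higher in BPAC, and 5 lower in PAC, which is 30.8%, 30.8% and 38.5% lower, against 21.5%, 23% and 12.2% of all genes. Ogdh, a subunit of the oxoglutarate dehydrogenase complex, fell by 0.50 in BAC, where the lowest log2 FC of these enzymes was -0.75. Of 32 further assembly factors that the symbol rule does not reach, 9 were lower and 2 higher in BAC and 7 lower and 4 higher in BPAC, so that the shares lower, 28.1% and 21.9%, were near those of all genes and the shares higher, 6.25% and 12.5%, under them. Ttc19 and Pet100, factors of complexes III and IV, had the largest falls in BAC, by 0.74 and 0.73.

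Markers of cell state changed with the treatment too, and their counts stand against the 20.3% to 23% of all genes called in each direction in BAC and BPAC, 11.2% and 12.2% in PAC, 3% and 4.25% in AC and 3.05% and 3.55% in the Braf contrast. The 10 colonocyte markers summed to 20140 to 30360 CPM in EtOH samples and to 3486 to 13940 CPM with 4-HT, and 10 of them were lower in BPAC, 9 in BAC, 7 in PAC and 6 in AC. The 5 counted stem cell markers of 6 summed to 266 to 446 CPM and to 635 to 949 CPM, and 5 were higher in BPAC, 4 in BAC, 5 in PAC and 3 in AC. The 8 proliferation markers summed to 612 to 819 CPM and to 969 to 1578 CPM, and 8, 7, 6 and 2 were higher in that order. In the Braf contrast 2 colonocyte markers were lower and 2 proliferation markers higher. Of 8 goblet cell markers 3 were higher and 3 lower in BAC and in BPAC. The 9 epithelial markers were all counted and summed to 18810 CPM or more in every sample, and 5 were lower in BAC. Only 1 of 8 fibroblast markers, Pdgfrb at 13.7 CPM or less and lower with 4-HT in BAC and BPAC, and 2 of 8 immune markers, Cd3e and Cd68 with a sum of 6.13 CPM or less, were among the genes counted. The part of these cell states in the fall of the members was not tested, and in bulk RNA fewer cells of a type and less RNA per cell cannot be told apart.

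The members are short genes, with a median exon length of 1795 bases against 4208 for all genes, and this moved with the result. Across the 98 genes the log2 FC and the exon length had a Spearman's rho of 0.27 in BAC, 0.24 in BPAC, 0.3 in AC and -0.01 in PAC, where all genes with a length had 0.07, 0.05, 0.08 and 0.01. These values are across genes, which share libraries and are not replicates. After a correction for length and GC content the rho over the members was -0.05 in BAC and -0.07 in BPAC, their median log2 FC was -0.34 and -0.29, and 57 and 45 members were lower by the same threshold, against 24.4% and 25.5% of all genes.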

How the data were processed

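RNA of 28 organoid samples, 14 cultures of 7 donors with EtOH and 4-HT each, was sequenced. Per the labels and methods, the authors trimmed reads with Trimmomatic 0.39, aligned them to GRCm38 with STAR 2.5.2b and deposited raw counts per gene. The counting program, annotation and strand setting are not given in the sources used here. The deposited counts hold 13519 genes, the lowest with 116 counts in all samples together, of which 13479 were matched to a symbol by identifier and 40 were not.

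Counts were fitted in 8 groups of genotype and treatment with the quasi-likelihood test of edgeR 4.0.16 (TMM normalization, R 4.3.3, common biological coefficient of variation 0.191), with Benjamini-Hochberg adjustment over all genes and a threshold of 0.01. Log2 fold changes are 4-HT minus EtOH. TMM factors were 0.885 to 0.97 in EtOH and 1.04 to 1.1 in 4-HT samples. Changes per culture are differences of log2 CPM with a prior count of 2. The edgeR fits with and without the block, limma-voom and DESeq2 were tested on simulated counts with known changes in BAC. These counts held no culture effect, and the other steps were not tested in this way. EtOH and 4-HT samples of 1 culture deviated together (r from 0.245 to 0.532 over 12 cultures, mean 0.416, against -0.138 for other cultures). The main fit had no block, so its p values do not use this pairing, and the culture was the block in an alternative fit. In PAC the duplicate 1 samples of the donors also deviated together across donors (0.26 and 0.44), so that block is in doubt there. For 1 4-HT sample the label gives no duplicate number, and 1 was assigned, since the donor's other sample is labelled 2. Alternatives were DESeq2 1.42.0, limma-voom 3.58.1, other scalings, a correction for exon length and GC content, donors summed, single duplicates and leaving out cultures.

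Named genes were, in each role group, the 2 with the highest mean CPM and the largest rise and fall past the threshold in each genotype, members past the threshold in the Braf or Trp53 contrast or in all 4 genotypes, isoform pairs, and the 2 largest changes of the other lists. Some genes that this rule names are not reported here. Members and lists were chosen with earlier results of these data known.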

Additional observations from a re-analysis of the deposited data

Results flagged for a closer look

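Among the 4 BPAC cultures, 1 stood apart from the rest. The mean change of complex IV from EtOH to 4-HT in BPAC donor 1 duplicate 2 was -0.22, where the other 3 cultures lay between -0.84 and -0.77. In the same culture Cox7a2 changed by -0.13 (others -0.65 to -0.59), Ndufb9 by -0.39 (others -0.96 to -0.89) and Uqcrb by -0.345 (others -0.77 to -0.72). Its EtOH level of Cox7a2 was 240 CPM (others 302 to 351) and its 4-HT level 219 CPM (others 200 to 225). For Ndufb9 these were 272 CPM (others 343 to 394) and 207 CPM (others 186 to 203). For Uqcrb the EtOH level of 264 CPM lay within the others (250 to 316), and the 4-HT level of 208 CPM lay above them (152 to 185). Chance alone marks about 1 in 20 such groups by Dixon's criterion, and 4 of the 114 groups of 4 cultures tested were marked. Without this culture the median change of the members in BPAC was -0.44.

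The change of Ndufa13 differed between genotypes, with a Braf contrast of -0.50 (edgeR adjusted p = 0.00156), and all 8 cultures with the *Braf* allele lay below all 6 without it. The gene was picked by this contrast, so the separation is no further support. It was the 1 member called lower (1.02%), where 3.55% of all genes were. The cultures came from few donors. These were 4 and 3 donors, and with donors summed the call was lost (contrast -0.44, adjusted p = 0.0137).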

How the results depend on the processing

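Calls are counts of the 98 members past the threshold in either direction, with 2 in AC, 18 in PAC, 67 in BAC, 56 in BPAC and 1 in the Braf contrast, and 7.25%, 23.4%, 41.9%, 45% and 6.61% of all genes were called there. The same share is given in brackets. With the culture as a replicate block they were 15 in AC (16.4%), 36 in PAC (34.9%) and 7 in the Braf contrast (14%), and with the duplicate number as a covariate 12 (15.3%), 32 (33.2%) and 5 (13%). With library size alone they were 41 in BAC (44%), 28 in BPAC (47.1%), 4 in PAC (30.5%) and 0 in AC (13.4%). With length and GC correction they were 8 in AC (11%), 31 in PAC (28.2%) and 2 in the Braf contrast (8.74%), and with the block added 21 (19.9%), 38 (38.1%) and 7 (16.8%). With 1 library per treatment left in AC, donors summed gave 0 in AC (5%) and 0 in the Braf contrast (3.81%), duplicate 1 alone 0 (6.61%) and 0 (3.88%), and duplicate 2 alone 0 in AC (0.0962%), 0 in PAC (0.0518%), 32 in BAC (21%), 15 in BPAC (22.2%) and 0 in the Braf contrast (0.237%). Without both duplicate 1 cultures of PAC there were 1 in AC (7.03%) and 0 in PAC (0.355%). Each genotype alone gave 0 in AC (1.87%), 5 in PAC (15.1%) and 28 in BPAC (33.4%), DESeq2 gave 8 in AC (11.9%), and an adjusted p of 0.05 gave 18 in AC (16.8%), 39 in PAC (36.7%) and 6 in the Braf contrast (14.7%).

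The median member change with library size alone was -0.30 in BAC, -0.16 in BPAC, -0.082 in AC and -0.023 in PAC. In AC it was -0.33 with donors summed, -0.34 with duplicate 2 alone and -0.23 with length and GC correction, with or without the block. In BAC it was -0.38 with duplicate 1 alone and -0.34 with the correction, with or without the block.

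Leaving out 1 culture at a time gave 52 to 74 calls in BAC, 37 to 60 in BPAC, 3 to 24 in PAC, 0 to 6 in AC, 0 to 3 in the Braf contrast and 0 in the Trp53 contrast. The medians ran from -0.499 to -0.428 in BAC, -0.439 to -0.337 in BPAC, -0.321 to -0.212 in PAC and -0.342 to -0.283 in AC. The AC count was 0 without AC replicate 1, AC 2, PAC 1, BAC 1, BAC 4 or BPAC 4, 1 without BAC 2, BAC 3, BPAC 1 or PAC 4, 5 without PAC 2 and 6 without BPAC 2, replicates 1 and 2 being the duplicates of donor 1 and 3 and 4 those of donor 2. The Braf count was 2 without PAC 3 and 3 without BPAC 2.

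Some small changes turned positive. With library size alone these were Atp5a1 in AC (0.036), Atp5b in AC (0.113), BAC (0.011) and BPAC (0.091), Atp5g1 in PAC (0.005), Atp5g2 in AC (0.158), PAC (0.19), BAC (0.115) and BPAC (0.16), Cox17 in AC (0.116), Cox7a2l in AC (0.001) and PAC (0.039), Cyc1 in AC (0.07), PAC (0.038), BAC (0.04) and BPAC (0.095), Ndufa4 in PAC (0.11) and BPAC (0.106), Ndufv1 in AC (0.10), Sdhd in AC (0.076) and PAC (0.062), and Uqcrc1 in AC (0.119) and PAC (0.002). With duplicate 1 alone Atp5g2 was 0.018 in PAC and 0.079 in BAC. With length and GC correction Ndufa4 was 0.094 in PAC and 0.13 in BPAC, and Sdhd 0.015 in AC, and with the block added 0.097, 0.131 and 0.015. Without 1 culture Atp5g2 ran from -0.147 to 0.009 in AC, -0.091 to 0.058 in PAC and -0.096 to 0.027 in BAC, and Ndufa4 from -0.242 to 0.005 in BPAC. The assembly group's mean in AC was 0.019 with a prior count of 0.5, and in BPAC -0.006 with a prior count of 5 and -0.036 as a median. Where no reason is built into the alternative, the cause was not tested.

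Of 3985 refits of 133 named gene values, 3616 kept their direction and side of the threshold, 213 fell short of it, 121 passed it and 35 changed sign. Duplicates are passages of 1 donor, so few donors limit every p value, and members under about 3 CPM, such as Cox17, are limited by depth.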
